A study of Mus musculus with 6 samples.

Results

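The T cell receptor complex and its proximal signalling genes were followed in mouse iTreg, regulatory T cells induced in culture, after prostaglandin E2 (PGE2). The set comprises 37 genes chosen by name, 23 with activating roles and 14 with inhibitory roles, out of 47643 genes in the tables. All 37 were found under their symbol in each library, and all 37 passed the filter of a mean of at least 1 FPKM (the authors' unit, fragments scaled to transcript length and library size), as did 12113 genes in all. There were 3 libraries with 100 nM PGE2 and 3 with vehicle (DMSO). Both groups share their origin: spleen CD4+ T cells of C57BL/6 mice with the Foxp3-DTR/EGFP allele, 2 days of culture with plate-bound antibody to CD3, soluble antibody to CD28 and TGF-β, then 6 h with the agent and a sort for GFP. The receptor studied here was therefore engaged in every sample before the agent was given, and the labels do not say whether the CD3 antibody was present during the 6 h. They give neither the age of the animals nor whether replicates came from separate mice or cultures. The p-values thus reflect the spread among these libraries, which may be technical.

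The receptor signals through the CD3 chains, whose cytoplasmic motifs are phosphorylated by the kinase Lck and then bind the kinase Zap70. Zap70 phosphorylates the scaffolds LAT and SLP-76, on which phospholipase C-γ1 and Vav1 assemble and from which calcium entry, protein kinase C-θ and Ras are switched on. The kinase Csk, phosphatases such as SHP-1, the SLAP adaptors and the Cbl ubiquitin ligases restrain these steps. In T cells, cAMP raised by the PGE2 receptors EP2 and EP4 activates protein kinase A, which is known to activate Csk and so to dampen Lck. Transcript levels do not show phosphorylation.

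Foxp3, which defines regulatory T cells, was at 115 ± 22.5 FPKM with PGE2 and 92.1 ± 14.4 FPKM with vehicle (SD, n = 3, adjusted p = 0.51 with limma), and all 5 regulatory T cell markers were over 1 FPKM. Their sum was 1786 to 1834 FPKM with PGE2 and 1360 to 1450 with vehicle. The markers did not move alike. Tnfrsf18 was at 707 ± 42.3 FPKM with PGE2 and 412 ± 70.4 with vehicle (adjusted p = 0.056 with limma), Il2ra at 640 ± 27.6 and 691 ± 59.6 FPKM (log2 change -0.11), and Ikzf2 averaged 8.90 and 8.39 FPKM (log2 change 0.07). Ctla4 was at 345 ± 5.93 FPKM with PGE2 and 199 ± 7.14 with vehicle. It was called (adjusted p = 0.0076 with limma), but the call was lost in 2 of 6 fits that left out a library (adjusted p up to 0.074). Coverage gave Ctla4 a log2 change of 0.75 (adjusted p = 0.021 with limma). Its assembled locus gave -0.65 with a wide spread (SE 1.11), so the readings differ and no direction is given for it. These 4 markers were named after their values were seen. The part of these markers in the results that follow was not tested. Summed markers of CD8 T cells were at 5.92 to 6.64 FPKM with PGE2 and 5.27 to 5.59 with vehicle, and those of B cells at 3.55 to 4.33 and 3.83 to 5.70 FPKM, with PGE2 first. Myeloid markers summed to 2.97 to 4.66 FPKM with PGE2 and 2.30 to 5.62 with vehicle, and NK cell markers to 2.26 to 4.50 and 0.627 to 2.78 FPKM, with Ncr1 and Klrb1c listed at 0 in all libraries. Erythroid markers summed to at most 1.25 FPKM with PGE2 and 0.960 with vehicle, and platelet markers to at most 0.529 and 0.771 FPKM. The highest of these markers were Cd8b1, Cd79b, Cd68, Klrd1 and Itga2b for CD8 T, B, myeloid, NK and platelet lineages. Coverage divided by FPKM put depth at 4.542 to 5.446 gigabases of fragments with PGE2 and 3.996 to 5.121 with vehicle.

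No activating member passed the test after PGE2, and the 1 call was an inhibitor. Sla2, which encodes SLAP-2, rose 1.69-fold and was the 1 member of 37 called, while 0 members fell. Over all tested genes 0.809% were called by limma at an adjusted p of 0.05, with 0.57% higher and 0.239% lower. Cblb, a ubiquitin ligase of the same inhibitory branch, was 1.51-fold higher and missed the threshold (adjusted p = 0.051 with limma), but rose once replicate number was fitted as a block (adjusted p = 0.024). The block called 2 members higher and 0 lower, where 3.26% of all tested genes were called, 1.77% higher and 1.49% lower. Sla, the relative of Sla2, was 1.70-fold higher in its annotated entry with overlapping groups (adjusted p = 0.225), and passed when read from its assembled locus or from coverage. Folds are on the log2(FPKM + 1) scale, which understates changes of low genes. In these bulk samples, fewer cells of a type and less RNA per cell cannot be told apart.

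Promoters of 3 members are shown because cAMP acts on transcription through CREB, and because Sla2 and Cblb are the members with the smallest p while Zap70 carries the full cAMP response element. They are RefSeq sequences of build GRCm38.p6, from 250 bases before to 50 after the start site, 5′ to 3′ on the strand of the gene, with matches to TGACGTCA or its core TGACG on either strand in capitals. The Sla2 promoter (chr2:156887172-156887471, minus strand) holds the core once, as CGTCA. That of Cblb (chr16:52031299-52031598, plus strand) holds neither. The first of 3 listed Zap70 start sites (chr1:36761548-36761847, plus strand) holds the full element, which contains the core on both strands.
Sla2: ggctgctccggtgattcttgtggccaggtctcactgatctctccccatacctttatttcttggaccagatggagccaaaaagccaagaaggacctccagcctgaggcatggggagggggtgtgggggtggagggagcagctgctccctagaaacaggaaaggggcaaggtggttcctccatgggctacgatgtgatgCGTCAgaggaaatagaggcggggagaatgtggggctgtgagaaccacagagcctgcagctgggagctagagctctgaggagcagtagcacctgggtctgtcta
Cblb: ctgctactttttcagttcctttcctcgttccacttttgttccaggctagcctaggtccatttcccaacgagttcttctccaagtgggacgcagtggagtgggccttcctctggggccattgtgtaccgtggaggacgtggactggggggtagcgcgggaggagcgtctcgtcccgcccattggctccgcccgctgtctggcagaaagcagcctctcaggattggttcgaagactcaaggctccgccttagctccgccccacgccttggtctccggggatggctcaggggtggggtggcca
Zap70: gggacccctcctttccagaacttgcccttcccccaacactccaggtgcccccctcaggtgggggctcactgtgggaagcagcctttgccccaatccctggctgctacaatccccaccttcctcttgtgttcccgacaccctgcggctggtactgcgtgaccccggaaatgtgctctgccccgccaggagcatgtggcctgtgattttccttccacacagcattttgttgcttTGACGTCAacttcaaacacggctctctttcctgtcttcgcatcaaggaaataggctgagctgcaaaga
Of the 37 members 31 matched an entry of the promoter table, with 44 promoters in all. The core is in 8 of the 44 (18.2%), where 20.8% of 32851 mouse promoters of this length hold it, and 1.79% of those hold the full element. The 8 belong to Cd3e, Dgka, Nck1, Orai1, Sla2, Stim1 and Zap70. Zap70, the 1 member with the full element, was at 67.6 ± 3.89 FPKM with PGE2 and 64.4 ± 7.11 with vehicle. A match is a description of these letters, not evidence of binding.

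**Figure D1:**
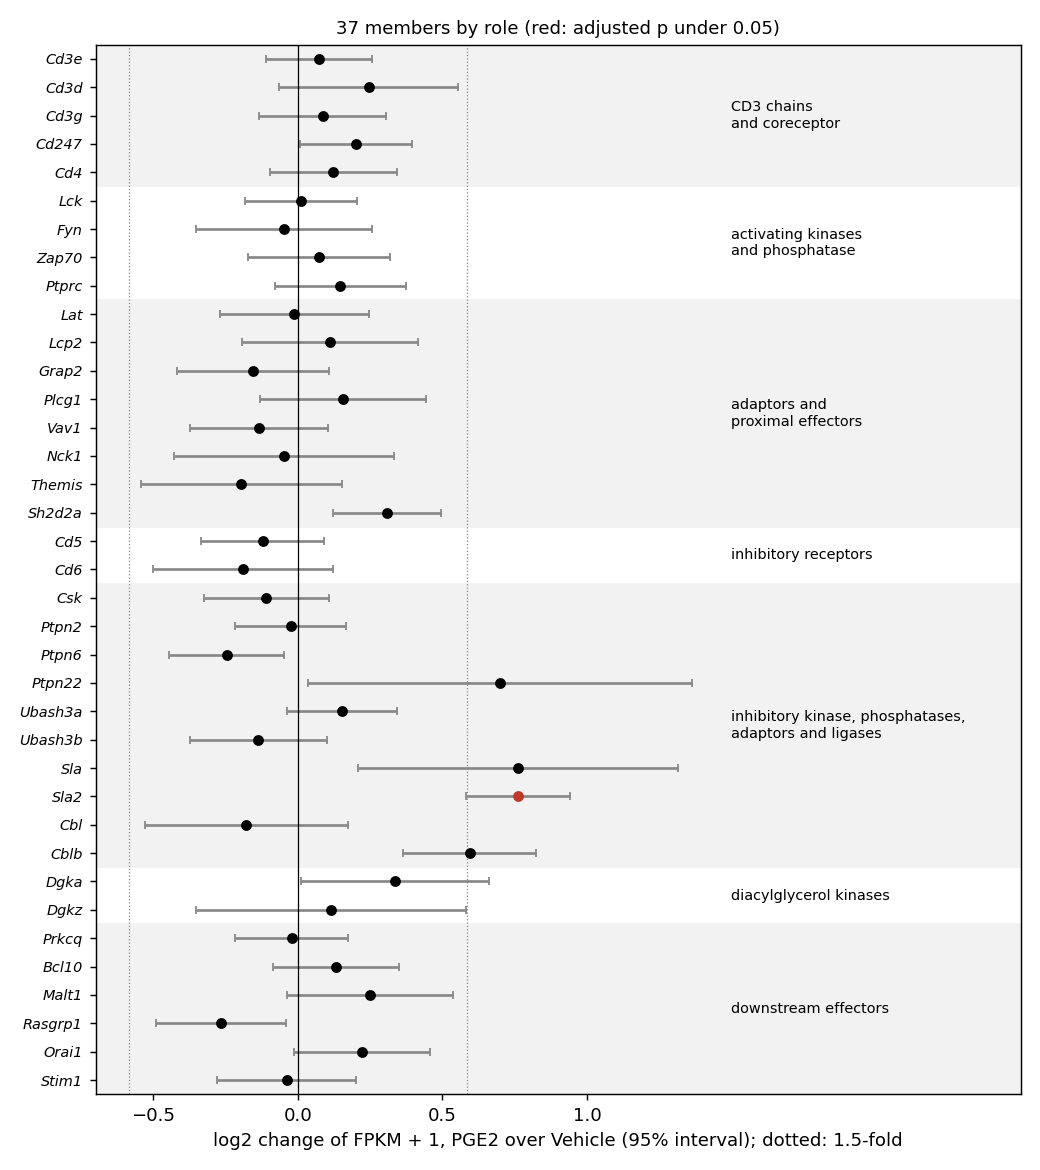
Log2 change of FPKM + 1, PGE2 over vehicle, for each of the 37 members with its 95% interval from limma, grouped by role; the dotted lines mark 1.5-fold. Values are of the annotated entries, which for Lcp2 differ from its assembled locus. All 23 activating members have intervals inside the dotted lines on this reading, and Sla2, in red, is the called member.

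The CD3 chains and the coreceptor were among the most abundant members, and the mean of each of the 5 was above vehicle without passing the test. Cd3e, a chain shared by the CD3 dimers, was at 148, 161 and 153 FPKM in PGE2 replicates 1, 2 and 3, against 144, 146 and 148 FPKM in vehicle replicates 1, 2 and 3. Cd3d was at 159, 175 and 218 FPKM with PGE2 and 148, 146 and 168 with vehicle, and Cd3g at 193, 201 and 226 with PGE2 and 189, 189 and 205 with vehicle. In both genes replicate 3 was the highest of its group, and the groups overlapped. Cd247, the ζ chain that carries most of the signalling motifs, was at 144, 158 and 154 FPKM with PGE2 and 135, 126 and 135 with vehicle. Its groups did not overlap, but its log2 change of 0.20 (SE 0.08) was not called (adjusted p = 0.36 with limma). Cd4, the coreceptor that brings Lck to the receptor, averaged 176 ± 16.0 FPKM with PGE2 and 161 ± 3.74 with vehicle (SD, n = 3).

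Of the 4 activating kinases and phosphatase 0 were called. Lck was at 252, 270 and 259 FPKM with PGE2 and 268, 257 and 251 with vehicle. Its log2 change of 0.01 had a 95% interval from -0.18 to 0.20, inside 1.5-fold in both directions. Fyn, the second Src-family kinase of T cells, was at 58.2 ± 9.73 FPKM with PGE2 and 59.7 ± 4.09 with vehicle (interval of the log2 change -0.35 to 0.26). Ptprc, which encodes CD45 and removes the inhibitory phosphate from Lck, was at 235, 225 and 195 FPKM with PGE2 and 194, 198 and 198 with vehicle. PGE2 replicates 1 and 2 lay above all vehicle libraries and replicate 3 among them.

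Of 8 adaptors and proximal effectors 0 were called, with FPKM means above vehicle for 3 and below it for 5. One of the 3 is Lcp2, whose sign differs between readings. Lat, the scaffold on which Zap70 acts, was the most abundant member of the set at 359 ± 28.6 FPKM with PGE2 and 362 ± 33.8 with vehicle (interval of the log2 change -0.27 to 0.25). Sh2d2a, which encodes the Lck-binding adaptor TSAd, stood apart at 58.5, 56.8 and 55.0 FPKM with PGE2 against 46.5, 43.0 and 47.7 with vehicle. The groups did not overlap, and the log2 change of 0.31 (SE 0.08) missed the threshold (adjusted p = 0.15 with limma and 0.089 with the block). Plcg1, phospholipase C-γ1, averaged 46.3 ± 4.17 FPKM with PGE2 and 41.6 ± 5.62 with vehicle, and Vav1, an exchange factor for Rac, 63.2 ± 4.31 and 69.6 ± 6.81 FPKM. Grap2, which encodes the adaptor GADS, was at 67.3 ± 8.93 FPKM with PGE2 and 74.7 ± 4.14 with vehicle. Themis and Nck1 were the lowest of these members, with Themis at 13.3 ± 1.77 FPKM with PGE2 and 15.5 ± 2.84 with vehicle, and Nck1 at 5.28 ± 1.18 and 5.46 ± 0.911 FPKM.

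Downstream of the scaffold, 0 of 6 effectors were called. Rasgrp1, the diacylglycerol-dependent activator of Ras, was at 42.7, 40.8 and 36.5 FPKM with PGE2, against 44.6, 51.3 and 49.0 with vehicle. Every PGE2 library was below every vehicle library, and the log2 change was -0.27 (SE 0.10, adjusted p = 0.30 with limma). Orai1, the pore of the calcium channel opened by store depletion, was at 21.5, 24.4 and 21.5 FPKM with PGE2 and 21.3, 18.0 and 18.1 with vehicle. These groups were narrowly apart in the annotated entry (adjusted p = 0.41 with limma). On the assembled locus they overlapped, with PGE2 replicate 1 at 19.8 FPKM and vehicle replicate 1 at 21.2. Stim1, the sensor of the channel, was at 18.7 ± 1.86 FPKM with PGE2 and 19.3 ± 1.43 with vehicle. Prkcq, protein kinase C-θ, was at 21.5, 20.9 and 19.7 FPKM with PGE2 and 22.4, 20.4 and 20.3 with vehicle. Its partners in NF-κB activation, Bcl10 and Malt1, averaged 24.9 ± 1.59 and 21.2 ± 3.48 FPKM with PGE2, against 22.7 ± 1.80 and 17.5 ± 0.790 FPKM with vehicle.

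Among inhibitors, the largest log2 changes were those of Sla, Sla2, Ptpn22 and Cblb, of which Sla2 alone passed. SLAP adaptors bind phosphorylated receptor components and recruit Cbl, which marks them for removal. Sla2 (ENSMUSG00000027636.11, mm10 chromosome 2 from 156872457 to 156887192, minus strand, a protein-coding gene) was at 46.9, 51.0 and 50.9 FPKM in PGE2 replicates 1, 2 and 3, against 29.1, 28.2 and 29.3 FPKM in vehicle replicates 1, 2 and 3. The groups were far apart relative to their spread (log2 change 0.76, SE 0.08, adjusted p = 0.0073 with limma), and by p the gene ranked 27 among the 12113 tested. Coverage gave a log2 change of 0.75 and the assembled locus 0.79. The call was lost without PGE2 replicate 2 (adjusted p = 0.067) or vehicle replicate 2 (0.059), and over all alternatives the adjusted p ran from 0.0051 to 0.067. The last 1107 bases of Sla2 overlap 1110008F13Rik on the opposite strand. That gene was at 43.1 ± 4.19 FPKM with PGE2 and 46.2 ± 11.8 with vehicle, with overlapping groups. The kit keeps strand, but how strand was used in the tables is not given in the sources used here.

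Cblb (ENSMUSG00000022637.10, chromosome 16 from 52031549 to 52208047) encodes Cbl-b, the ligase that makes T cell activation depend on CD28 costimulation. It was at 19.3, 18.8 and 19.2 FPKM with PGE2 and 11.4, 11.6 and 14.0 with vehicle. The groups did not overlap, with vehicle replicate 3 the nearest to the PGE2 libraries, and the log2 change was 0.59 (SE 0.10, 95% interval 0.36 to 0.83). Without vehicle replicate 3 it passed (adjusted p = 0.030 with limma), and over all alternatives adjusted p ran from 0.024 to 0.22. Cbl, its relative, was at 24.5, 20.3 and 15.9 FPKM with PGE2 and 21.04, 23.5 and 23.6 with vehicle (log2 change -0.18, SE 0.15). The ratio of Cblb to Cbl within a library was 0.787, 0.925 and 1.21 in PGE2 replicates 1, 2 and 3, against 0.543, 0.494 and 0.594 in vehicle replicates 1, 2 and 3. The groups did not overlap, and Cbl was lowest in PGE2 replicate 3, where the ratio was highest.

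**Figure D2:**
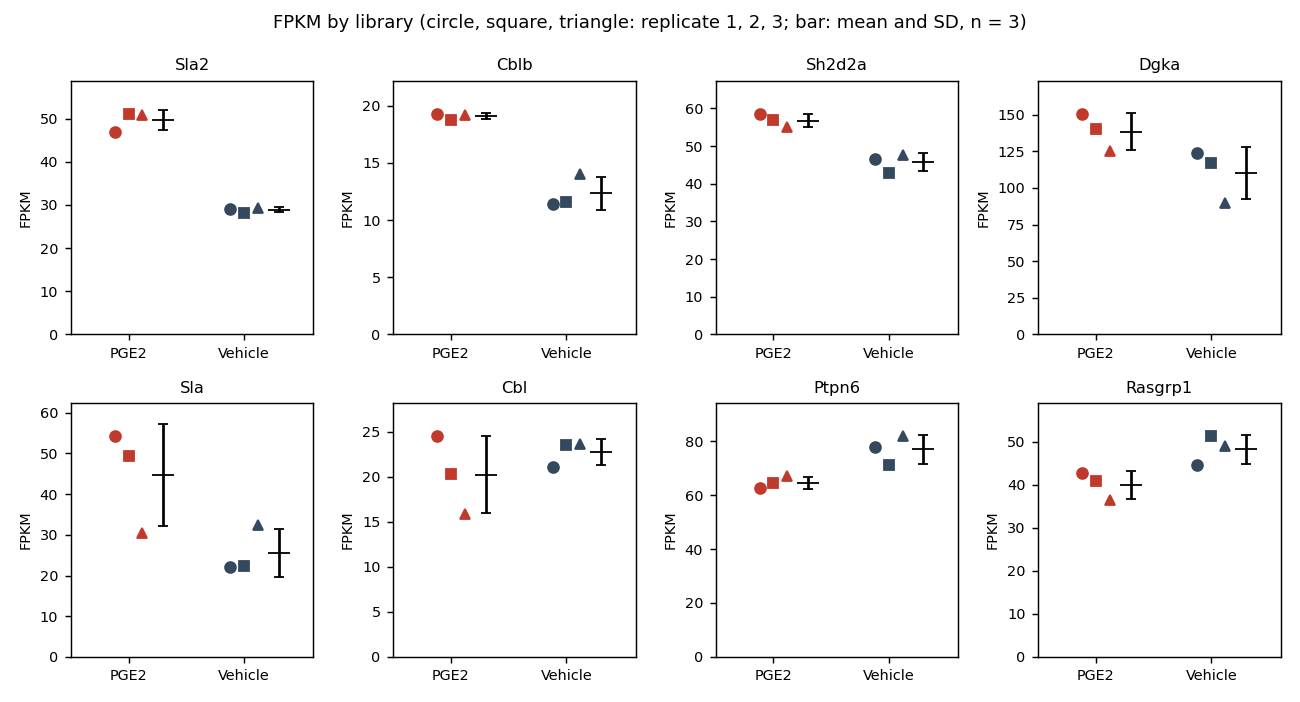
FPKM of 8 members in each library, PGE2 left of vehicle, with symbols for replicate number and bars for mean and SD (n = 3). Sla2, Cblb, Sh2d2a and Dgka are higher without overlap, Ptpn6 and Rasgrp1 lower without overlap, and the groups of Sla and Cbl overlap.

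For Sla and Ptpn22 the annotated entry and the assembled locus differed by library. Each table lists a locus a second time as assembled from the reads, which offers a second reading of the same data. Sla, which encodes SLAP, was at 54.2, 49.4 and 30.5 FPKM with PGE2 in its annotated entry, against 22.0, 22.4 and 32.4 with vehicle. Replicate 3 of both groups lay between the others. On the assembled locus it was at 84.1, 93.7 and 70.9 FPKM with PGE2 and 42.1, 45.8 and 39.2 with vehicle, so that every PGE2 library was above every vehicle library. The log2 change was 0.94 on the locus (adjusted p = 0.038 with limma) and 0.98 in coverage (adjusted p = 0.027), against 0.76 (SE 0.24) in the annotated entry. Of 11977 genes with a locus 1.06% were called, 0.776% higher and 0.284% lower, and in coverage 1.31% of tested genes were called, with 0.925% higher. Sla lies wholly within Tg, on the opposite strand, and Tg was at 3.81 ± 0.709 FPKM with PGE2 and 1.03 ± 0.875 with vehicle; its part in the values of Sla was not tested.

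Ptpn22, a phosphatase that works with Csk on Lck and Zap70, was at 22.1, 21.3 and 21.8 FPKM with PGE2 and 17.1, 7.38 and 17.1 with vehicle. Vehicle replicate 2 was far below the rest, and it was not low on the assembled locus, where the gene was at 49.2, 47.9 and 39.6 FPKM with PGE2 and 33.6, 35.1 and 31.4 with vehicle. The groups did not overlap on either reading. The log2 change was 0.70 (SE 0.28, adjusted p = 0.36 with limma) in the annotated entry, 0.43 on the locus (adjusted p = 0.15) and 0.40 in coverage (adjusted p = 0.13). Lcp2, which encodes SLP-76, also differed between readings, in vehicle replicates 2 and 3. In those libraries 2 assembled loci lay on its strand, against 1 in each other library. The part of this in the difference was not tested. Its annotated entry gave 61.2 ± 2.04 FPKM with PGE2 and 57.2 ± 10.6 with vehicle, and its locus 61.2 ± 2.04 with PGE2 and 88.9 ± 17.1 with vehicle, a log2 change of 0.11 and of -0.51 (adjusted p = 0.21 on the locus). Coverage put Lcp2 at -0.09, so no direction is given for it.

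**Figure D3:**
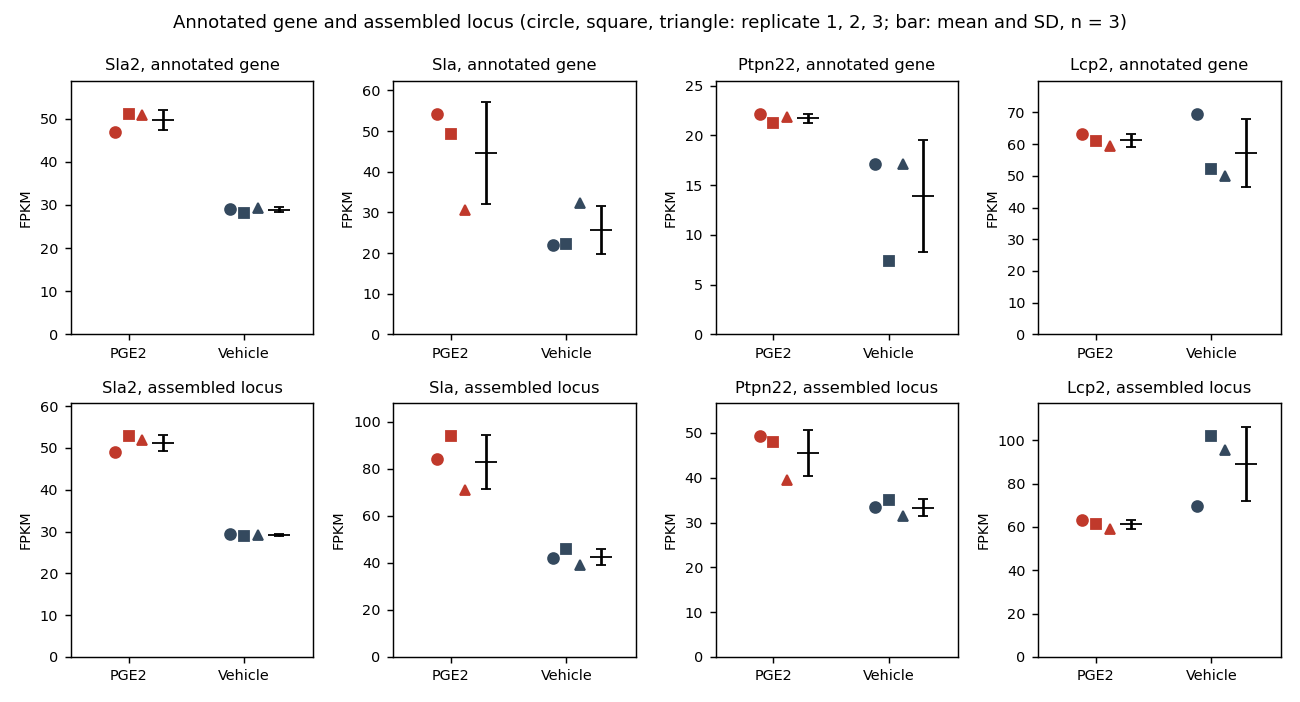
FPKM of 4 members in the annotated entry (top) and in the assembled locus on the same strand (bottom), PGE2 left of vehicle, with replicate symbols and mean with SD (n = 3). Sla overlaps between groups in the top row and not in the bottom row, vehicle replicate 2 of Ptpn22 is low at 7.38 in the top row only, and Lcp2 in vehicle replicates 2 and 3 is higher in the bottom row.

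The other inhibitors moved less, and in both directions. Csk, the kinase that phosphorylates the inhibitory tyrosine of Lck, was at 102, 110 and 98.6 FPKM with PGE2 and 119, 115 and 102 with vehicle (log2 change -0.11, SE 0.09, 95% interval -0.33 to 0.11). The groups overlapped by 1 library. Ptpn6, which encodes SHP-1, was at 62.5, 64.5 and 66.9 FPKM with PGE2, against 77.9, 71.2 and 81.7 with vehicle. It was lower in every PGE2 library, with a log2 change of -0.25 (SE 0.08, adjusted p = 0.27 with limma). Ptpn2, which dephosphorylates Lck and Fyn, was at 24.4 ± 1.54 FPKM with PGE2 and 24.8 ± 0.623 with vehicle. Its assembled locus was higher and varied more, at 63.8 ± 7.07 FPKM with PGE2 and 60.6 ± 19.3 with vehicle. Ubash3a, which encodes STS-2, was at 34.2, 33.7 and 32.1 FPKM with PGE2 and 30.0, 28.1 and 31.6 with vehicle, while Ubash3b, which encodes STS-1, a phosphatase acting on Zap70, was at 3.54, 3.36 and 2.98 with PGE2 and 3.68, 3.82 and 3.64 with vehicle. Neither pair of groups overlapped, and adjusted p was 0.50 for Ubash3a and 0.64 for Ubash3b with limma.

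The inhibitory receptors Cd5 and Cd6, scavenger-receptor proteins that associate with the receptor complex, both had lower means with PGE2. Cd5 was at 90.1 ± 5.84 FPKM with PGE2 and 98.0 ± 6.37 with vehicle, and Cd6 at 78.4 ± 11.1 and 89.2 ± 9.63 FPKM, neither called. Of the diacylglycerol kinases, which remove the lipid that activates RasGRP1 and protein kinase C-θ, Dgka was at 150, 140 and 125 FPKM with PGE2 and 124, 117 and 89.8 with vehicle. The lowest PGE2 library was just above the highest vehicle library, and in both groups replicate 3 was lowest (log2 change 0.34, SE 0.14, adjusted p = 0.37 with limma and 0.084 with the block). Dgkz was at 77.2, 82.3 and 53.9 FPKM with PGE2 and 78.6, 65.7 and 52.1 with vehicle, again lowest in replicate 3 of both groups.

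**Figure D4:**
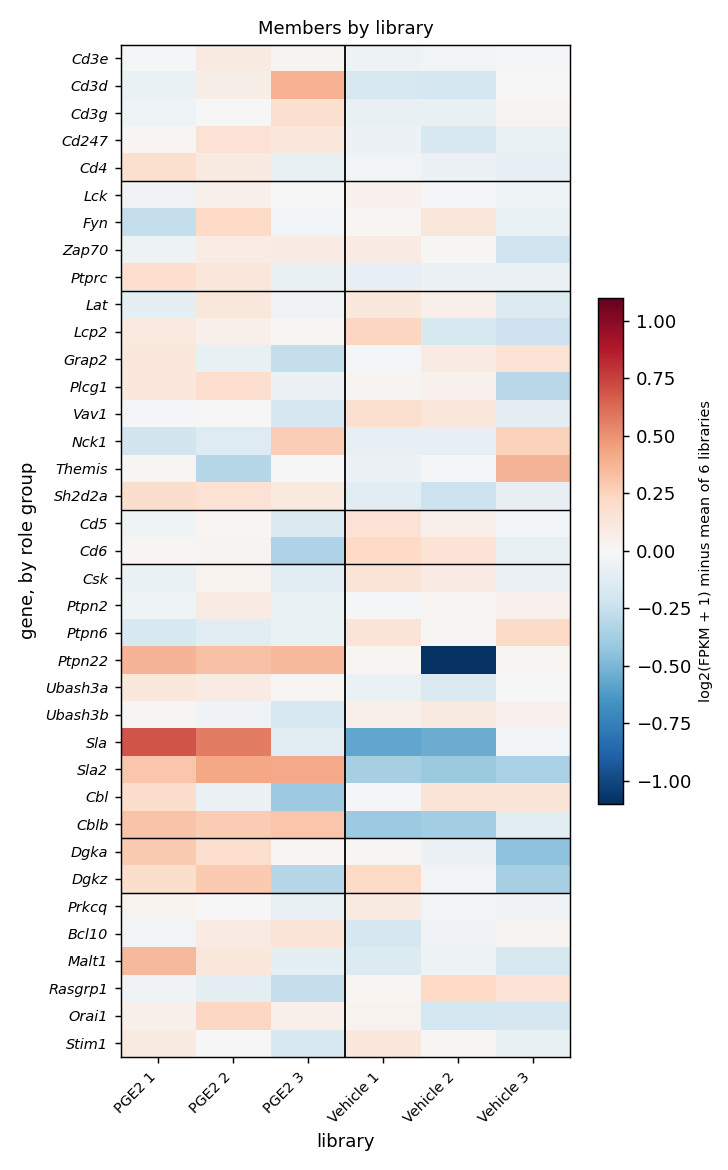
Each member's log2(FPKM + 1) minus its mean over the 6 libraries, with genes in rows by role group and libraries in columns, PGE2 left of vehicle. Sla2 and Cblb show one colour per group, replicate 3 is the highest of both groups in Cd3d and Nck1 and the lowest in Dgka and Dgkz, and Ptpn22 is darkest in vehicle replicate 2.

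Across the set, the mean log2 value was above vehicle for 21 of 37 members and below it for 16, with a median log2 change of 0.07. Over all tested genes 43.3% were above and 56.7% below, with a median of -0.03. The activating roles had a median of 0.07 with 14 of 23 higher, and the inhibitory roles 0.05 with 7 of 14 higher. The median size of the change, without regard to sign, was 0.13 for activating members, 0.18 for inhibitory members and 0.12 for all tested genes. In the annotated entries, groups did not overlap, with PGE2 higher, for 8 members (21.6%, where 7.81% of all tested genes did so). With PGE2 lower they did not overlap for 3 (8.11%, where 11.9% did so), out of 19.7% of all tested genes without overlap. At an unadjusted p under 0.05, 7 members were higher and 2 lower, against 5.46% and 7.59% of all tested genes, or 13% in either direction. Of the 7 higher, 5 have inhibitory roles, out of 14, and 2 have activating roles, out of 23. Other pathway genes, described below, did not show this split. Of those listed as inhibitory 4 of 29 were higher, and of those listed as activating 5 of 31. The list gives each gene a single role, which is open to question for some, such as Sh2d1a among the 4. These are descriptions, since the members were chosen by name with earlier results of these data known.

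The 95% interval of the log2 change lay inside 1.5-fold in both directions for 32 of 37 members, among them all 23 with activating roles and 9 of 14 with inhibitory roles. Median half-width was 0.24, with a range of 0.18 for Sla2 to 0.66 for Ptpn22. The 5 members whose interval passed 1.5-fold were Sla2, Cblb, Sla, Ptpn22 and Dgka. These intervals are per gene and not adjusted for the number of genes. They are of the annotated entries. For Lcp2 the interval was -0.19 to 0.42, while its assembled locus gave a log2 change of -0.51 (SE 0.15), outside that interval. That locus was assembled differently in vehicle replicates 2 and 3, as given above. Coverage gave the same sign of change as FPKM for 35 members, all but Lcp2 and Dgkz, and a log2 change within 0.1 for 32. The assembled locus also kept the sign for 35, all but Lcp2 and Ptpn2, and was within 0.1 for 32.

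Other genes of the pathway were taken from a list of 80, of which 76 were tested and 4 (Itpr1, Rnf128, Spry2 and Ceacam1) were under 1 FPKM. Of the 76, limma called 1 higher and 1 lower, and the block called 3 higher and 2 lower. Over all tested genes limma called 0.57% higher and 0.239% lower, and the block 1.77% higher and 1.49% lower. Txk, a Tec-family kinase that can phosphorylate phospholipase C-γ1, rose 2.01-fold. It was at 20.4, 24.7 and 25.1 FPKM with PGE2 and 10.8, 11.1 and 11.5 with vehicle, wide apart (log2 change 1.01, SE 0.10, adjusted p = 0.0073 with limma), and leaving out PGE2 replicate 2 lost the call (adjusted p = 0.061). Lair1, an inhibitory receptor for collagen, fell to 2.06, 2.43 and 1.56 FPKM with PGE2, against 4.56, 4.54 and 4.01 with vehicle (log2 change -0.84, SE 0.14, adjusted p = 0.048 with limma). Its call was lost without any 1 of the 6 libraries, at adjusted p of 0.074 to 0.20. The log2 change of Lair1 was -0.84 on the assembled locus and -0.47 in coverage.

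Rasa3, a GTPase-activating protein for Ras and Rap, was at 40.8, 39.5 and 37.6 FPKM with PGE2 and 31.1, 29.1 and 28.3 with vehicle, without overlap (adjusted p = 0.078 with limma), and rose with the block (adjusted p = 0.036). Fyb, an adaptor that links SLP-76 to integrins, was at 37.5, 36.3 and 42.9 FPKM with PGE2 and 24.1, 26.7 and 15.4 with vehicle (log2 change 0.82, SE 0.19, adjusted p = 0.12 with limma). The assembled locus of Fyb gave a log2 change of 0.81, and coverage 0.38 (adjusted p = 0.27 with limma). Trat1, the transmembrane adaptor TRIM that binds the ζ chain, was named after its values were seen. It was at 14.2, 14.0 and 10.7 FPKM with PGE2 and 19.8, 20.9 and 14.0 with vehicle, and it fell with the block only (adjusted p = 0.039, against 0.32 without it). Replicate 3 was the lowest of both groups. Of 9 tested genes of calcium release and calcineurin, 0 were called by limma in either direction, with the block or at an unadjusted p under 0.05. Itpr2, an inositol trisphosphate receptor, was at 1.16 ± 0.234 FPKM with PGE2 and 1.75 ± 0.409 with vehicle, and Orai2, a relative of Orai1, at 11.7 ± 1.32 and 12.8 ± 0.692 FPKM.

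**Figure D5:**
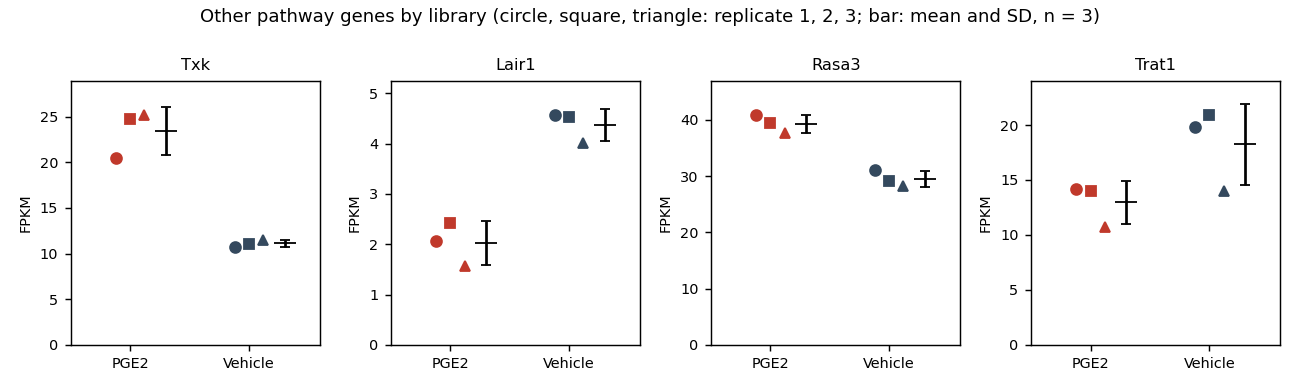
FPKM of 4 other pathway genes in each library, PGE2 left of vehicle, with replicate symbols and mean with SD (n = 3). Txk and Rasa3 are higher and Lair1 lower without overlap, and in Trat1 the PGE2 libraries lie at 10.7 to 14.2 with vehicle replicate 3 among them at 14.0.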

How the data were processed

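Polyadenylated RNA of sorted cells was sequenced from a stranded kit. The submitters' processing notes name Trim Galore, HISAT2 and mm10. For versions, annotation and the quantification program, the sources used here give nothing. Per the file headers, the deposited tables give coverage, FPKM and TPM per gene. The deposited FPKM is the authors' value scaled to transcript length and library size. The deposited coverage was rescaled by library before its fit, as given below. The deposited TPM column, whose total is above what the unit allows, with loci listed under the annotated gene and again as assembled, was treated as a score and not used. Depth is limited to the ratio of coverage to FPKM, and without counts no counting interval was computed.

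Annotated entries were joined by gene ID, repeated IDs summed, and log2(FPKM + 1) fitted for the 12113 genes that averaged 1 FPKM or more with limma 3.58.1 in R 4.3.3 (variance trend, no covariate, two-sided, Benjamini-Hochberg over all tested genes, threshold 0.05). Coverage was divided by the library's ratio of coverage to FPKM in genes with 1 transcript, and 1 was added before log2. That shrinks changes of genes whose coverage is low on this scale. All 37 members are protein coding in GENCODE M21. Deviations from the group mean correlated between libraries of the same number at 0.23, 0.31 and 0.53, all over 0.1. Unlike numbers also correlated, PGE2 1 with vehicle 2 at 0.27 and PGE2 2 with vehicle 1 at 0.15, so that number sets apart replicate 3 more than the others. Over the members alone the same-number values were -0.06, 0.32 and 0.27. These values do not settle whether the title numbers pair the samples. Number entered the block fit only, and the main fit left the samples unpaired. On simulated data for PGE2 against vehicle with 12113 genes, 29% of 100 genes changed 1.5-fold and 76% of 100 changed 2-fold were recovered, with 3 false calls, and 0 calls were made with no change. The simulated noise was normal, with each gene's own SD, and independent between genes and libraries. Shared deviations like those above were left out, so these are not the error rates of the real data.

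Alternatives were another pseudocount, other filters, median centring, quantile normalization, coverage, constant prior variance, the replicate block and leaving out each library; the assembled locus on the same strand with the largest overlap was added after seeing the data. The members and lists were chosen with earlier results of these data known. All members may be named, and of the pathway list called genes and the 2 smallest p per sublist. Figures used matplotlib 3.10.9.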

Additional observations from a re-analysis of the deposited data

How the results depend on the processing

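Sla2 kept its direction under every alternative run. With the replicate block, 215 genes rose and 180 fell, 2 members rose (Sla2 and Cblb), and 3 pathway genes rose and 2 fell; the block changed no other member's call. Coverage in place of FPKM called 112 and 47 genes, higher and lower, and 3 members (Sla2, Cblb and Sla), and moved the median of all members to 0.013. Without a filter 33 genes rose, 12 fell and 0 pathway genes fell; with a filter at 5 FPKM 2 members and 2 pathway genes rose and 0 fell. Median centring called 2 members and 2 pathway genes higher; quantile normalization called 2 members higher and moved the median of all members and of activating members to 0.014 each. A pseudocount of 0.1 left 0 pathway genes lower, and constant prior variance 16 genes lower. On assembled loci 2 members rose (Sla2 and Sla) and 0 pathway genes fell.

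Leaving out 1 library at a time, 16 to 53 genes rose and 4 to 16 fell, 0 to 2 members and 0 to 2 pathway genes rose, and 0 fell. The median log2 change ran from 0.02 to 0.07 over all members, 0.04 to 0.09 over activating and -0.04 to 0.09 over inhibitory members, so the last has no stable direction; it was also -0.04 in coverage. No counts were at hand, so depth limits low genes by an unknown amount.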

Other observations

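A list of 7 genes, all tested, held protein kinase A subunits, the scaffold proteins Ezr and Slc9a3r1, and Pde4b and Pde4d. Pde4b and Pde4d are phosphodiesterases, which degrade cAMP. Of the 7, 0 were called, and 6 were above vehicle in mean log2 value, as were 43.3% of all tested genes. At an unadjusted p under 0.05, 3 were higher by limma, where 5.46% of all tested genes were, and both phosphodiesterases are among the 3. Pde4b, named after its values were seen, was at 8.63 ± 2.64 FPKM with PGE2 and 5.78 ± 1.04 with vehicle (SD, n = 3, adjusted p = 0.38 with limma). Its log2 change was 0.48 in FPKM, 0.66 on the assembled locus and 0.09 in coverage. Prkar1a, the regulatory subunit of type I protein kinase A, was at 159, 168 and 157 FPKM in PGE2 replicates 1, 2 and 3, against 135, 133 and 140 in vehicle replicates 1, 2 and 3, without overlap (log2 change 0.25, SE 0.08, adjusted p = 0.24). Pde4d, a cAMP phosphodiesterase, was at 37.6, 32.6 and 23.7 FPKM with PGE2 and 15.4, 16.5 and 13.2 with vehicle. It missed the threshold (log2 change 0.99, SE 0.17, adjusted p = 0.056 with limma) and rose with the replicate block (adjusted p = 0.0090). The log2 change of Pde4d was 0.90 on its assembled locus and 0.12 in coverage. The added 1 shrinks changes at low coverage, and its part in this gap was not tested.

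Ratios of related members differed in how far the groups stood apart. Ubash3a over Ubash3b was 9.68 to 10.8 with PGE2 and 7.35 to 8.69 with vehicle, and Ptpn22 over Ptpn6 was 0.326 to 0.354 with PGE2 and 0.104 to 0.220 with vehicle, of which 0.104 is vehicle replicate 2, low in the annotated entry of Ptpn22. Csk over Lck was 0.380 to 0.4082 with PGE2 and 0.4085 to 0.445 with vehicle, so its groups all but touched. Sla2 over Sla overlapped, at 0.866 to 1.67 with PGE2 and 0.902 to 1.32 with vehicle. Dgka over Dgkz overlapped as well, at 1.70 to 2.32 with PGE2 and 1.57 to 1.78 with vehicle. All are ratios of annotated entries. These ratios were chosen after the values were seen and were not tested.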
